A study of Mus musculus with 6 samples.

Results

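The mRNAs described here encode 9 transcription factors that steer bone marrow myeloid cells between macrophage, granulocyte and osteoclast fates: Spi1 (PU.1), Irf8, Bcl6, Prdm1 (Blimp-1), Cebpa, Cebpb, Cebpe, Klf4 and Gfi1. They were taken by name from the 37074 gene names on the array, and every probe of each was kept, 12 probes in all. The samples were osteoclast cultures from 3 Ano1fl/fl mice, the control, and from 3 Ctsk-Cre;Ano1fl/fl littermates, the conditional knockout (cKO). Both groups carry the floxed alleles of Ano1, a calcium-activated chloride channel, and they differ by a Cre recombinase driven by the cathepsin K promoter, which is active mainly in osteoclasts, so that other cells of a culture may keep the gene. Marrow of tibias and femurs was first cultured with M-CSF. By the methods, the cells in suspension were then collected and received M-CSF and RANKL, the cytokine that induces osteoclasts, for 5 days. The labels give no age, the methods describe such cultures from donors of 6 to 8 weeks, and no untreated culture was analysed here.

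PU.1 is needed to make macrophages and their descendants, and at enhancers it works with partners, among them IRF8 in monocytes and C/EBP factors in granulocytes and monocytes. C/EBPα opens the granulocyte and monocyte programme, C/EBPε drives the later neutrophil stages, C/EBPβ acts in macrophages and in emergency granulopoiesis, KLF4 favours monocytes, and GFI1 represses monocyte genes in granulocyte precursors. In osteoclast precursors IRF8 and BCL6 repress osteoclast genes such as Nfatc1, Ctsk and Dcstamp, while Blimp-1, induced through NFATc1, represses Irf8 and Bcl6 and so releases that brake.

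Each array probe is a 60-base oligonucleotide, and its sequence shows which stretch of a gene was read. The Spi1, Prdm1 and second Gfi1 probes are given whole since they lie in coding sequence, and the Prdm1 probe reads the PR domain and the second Gfi1 probe the SNAG repressor domain. Positions are on mm9 as printed in the array files. The Spi1 probe, on the plus strand at chr2:90939665-90953452, crosses an exon junction, the Prdm1 probe lies on the minus strand at chr10:44166619-44166678, and the second Gfi1 probe lies on the minus strand at chr5:108152798-108152857.
Spi1: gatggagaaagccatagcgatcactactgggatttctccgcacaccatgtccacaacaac
Prdm1: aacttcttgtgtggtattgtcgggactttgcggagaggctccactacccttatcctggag
Gfi1, second probe: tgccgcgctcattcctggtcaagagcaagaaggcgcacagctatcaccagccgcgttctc

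Irf8 and Bcl6 have 2 probes each, and the pairs read different transcripts, so the first 30 bases of each are shown. In each pair the first probe carries a RefSeq accession (NM_008320 for Irf8, at chr8:123280324-123280383 on the plus strand, and NM_009744 for Bcl6, at chr16:23965160-23965219 on the minus strand) and the second only an Ensembl transcript and a cDNA clone, at chr8:123267009-123267068 and chr16:23967780-23967839.
Irf8, RefSeq probe: aacagacagggtcgacagagtgtgtgatac
Irf8, other transcript: ctggcctttgcttaaagcacaagctttgga
Bcl6, RefSeq probe: cagggtttggctgtgtctaaactgcattag
Bcl6, other transcript: tatgtaggagcagtgaaggtgttaaaggaa

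Levels below are quantile normalized log2 intensities of a probe, differences are cKO minus control, and an error is a standard error unless named an SD. Every group has n = 3 arrays, and the methods give 3 mice a group. A probe was tested if all 3 arrays of a group, or of both, had it marked by the scanner as well above background, as held for 31848 probes, and a call is an adjusted p under 0.05 (limma, Benjamini-Hochberg over all of them). On each array 33480 to 34951 of 59305 transcript spots were well above background and no spot was saturated. The single Ano1 probe stayed at background on all 6 arrays (1.76 to 1.78 in the control and 1.70 to 2.04 in the cKO), so the targeted gene gives no check of the labels, and every direction below is that of the labels. For the osteoclast genes it is opposite to the direction the study describes in cultures of these genotypes. The cells cannot be told apart in RNA from a whole culture: fewer cells of a type and less RNA per cell look the same.

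Of the 12 probes 11 were tested, all of them well above background on all 6 arrays. Cebpb and Spi1 were higher in the cKO, Cebpe, Cebpa and the second probes of Irf8 and Bcl6 were lower, and the RefSeq probes of Irf8 and Bcl6, with Klf4, Gfi1 and Prdm1, passed in neither direction. The 2 higher probes of 11 stand beside 21.8% of all probes tested that were higher, and the 4 lower ones beside 30.6% that were lower. None of the 11 was past the threshold and changed over 2-fold, where 17.0% of all probes were, and 0 were over 2-fold at any p. The 2 groups did not overlap for 6 of the 11 probes, the same 6 that passed, against 64.0% of all probes. The median absolute difference was 0.48 for the 11 probes and 0.37 over all probes tested, and the medians of the signed differences were -0.13 and -0.09. The shares of higher and lower calls were near those of the whole array, while the share over 2-fold was below it; neither difference was tested.

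**Figure D1:**
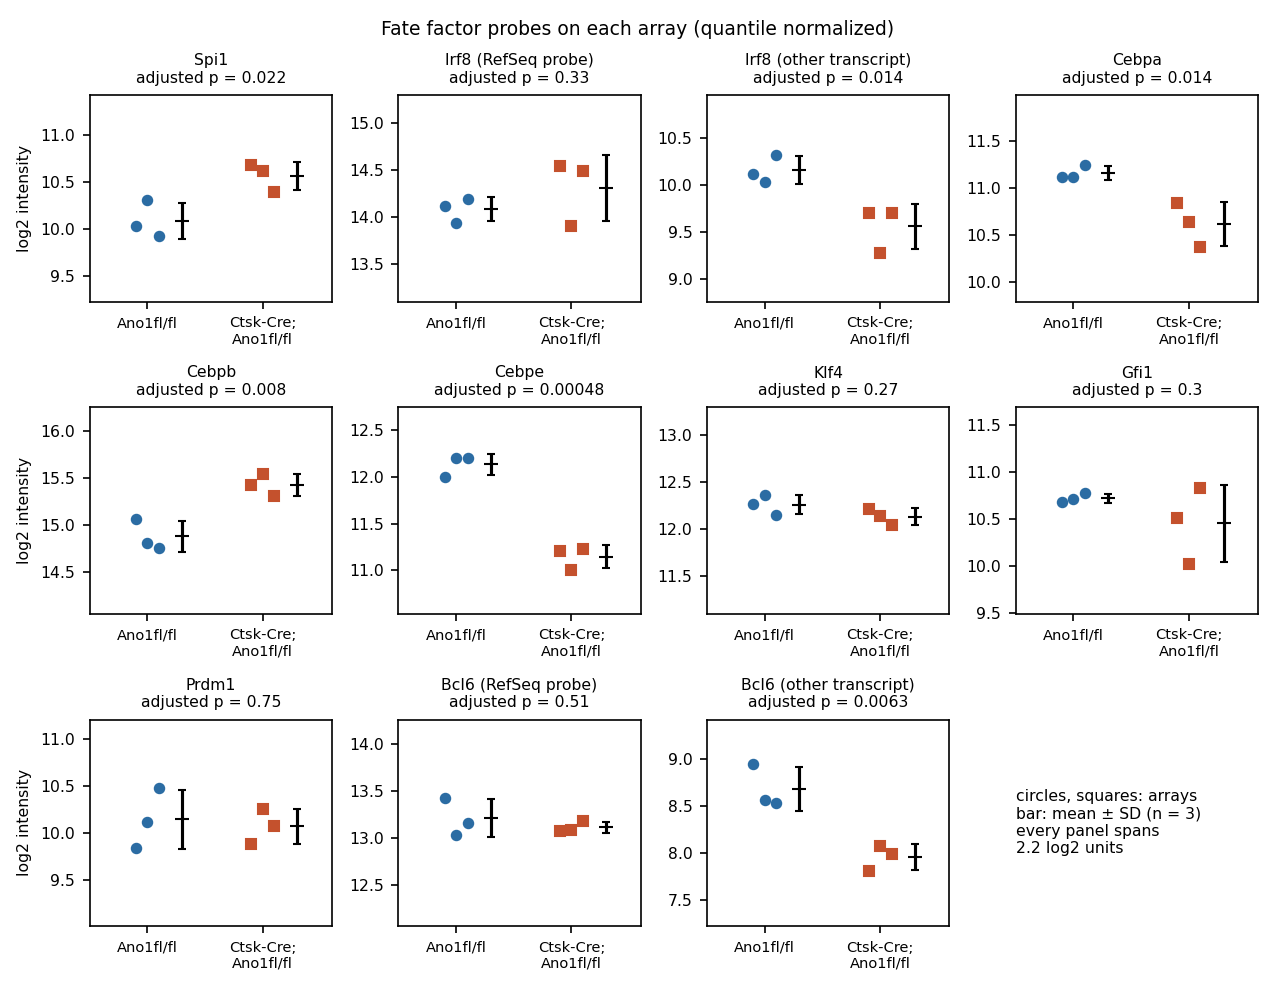
Quantile normalized log2 intensity (y axis, each panel spanning 2.2 units) of the 11 tested probes on the 3 Ano1fl/fl (blue circles) and 3 Ctsk-Cre;Ano1fl/fl (orange squares) arrays, with the group mean ± SD in black. The groups are apart for Spi1, Cebpa, Cebpb, Cebpe and the second probes of Irf8 and Bcl6 and overlap in the other 5 panels.

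Spi1, which encodes PU.1, read 10.03, 10.30 and 9.92 on the control arrays and 10.68, 10.61 and 10.39 on the cKO arrays. All 3 cKO arrays lay above all 3 control arrays, the closest pair being 10.39 and 10.30. The difference was 0.48 ± 0.13, or 1.39-fold (95% confidence interval 1.12 to 1.73), with an adjusted p of 0.0224. This call was the least firm of the 6. It was lost in 7 of 18 alternatives, 4 of which leave out 1 array (adjusted p 0.067 without control array 1, 0.0685 without control array 3, 0.067 without cKO array 1 and 0.062 without cKO array 2).

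Macrophage genes known to be under PU.1 were set beside it. Of 13 tested, 2 were higher, 1 was lower and 10 had no call, and their median difference was 0.07; by the brightest probe of each gene, 23.0% of all 20645 genes tested were higher and 28.5% lower, with a median of -0.06. Csf1r, the M-CSF receptor and a classical PU.1 target, read 16.88, 16.79 and 16.81 in the control and 16.84, 16.87 and 16.67 in the cKO, a difference of -0.04 ± 0.08 (adjusted p = 0.743). Cybb, the oxidase subunit of phagocytes, was higher by 0.50 ± 0.16 (adjusted p = 0.0389), a call lost in 9 of 17 alternatives. Fcgr3, an activating Fc receptor, was higher by 0.44 ± 0.08 (adjusted p = 0.00548, lost in 2 of 17 alternatives), and Fcgr1, the high-affinity Fc receptor, was lower by 0.91 (difference -0.91 ± 0.12, adjusted p = 0.00117).

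Other ETS genes, the family of PU.1, split 4 higher to 5 lower among 13 tested, with a median of -0.05, and 3 were lower without control array 1 and without cKO array 1. Ets2 rose from 11.62, 11.35 and 11.05 to 13.71, 13.49 and 13.37, 4.55-fold. Spib, the closest relative of PU.1 and active in B cells and dendritic cells, rose 3.77-fold, with 9.81, 10.06 and 10.23 in the control and 12.07, 11.43 and 12.34 in the cKO. Elk3 fell by 0.82 on the log2 scale. Erg, a stem cell and endothelial factor, read 4.93, 4.85 and 4.89 in the control and 3.82, 4.37 and 2.92 in the cKO, where it was well above background on 1 of 3 arrays, so that the size of its fall is not known (adjusted p = 0.0264, lost in 7 of 16 alternatives).

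The RefSeq probe of Irf8, the monocyte partner of PU.1 and a repressor of osteoclast genes, read 14.12, 13.94 and 14.19 in the control and 14.54, 13.90 and 14.49 in the cKO. The cKO arrays 1 and 3 were above all controls and cKO array 2 was below them. The difference was 0.23 ± 0.18 (95% confidence interval -0.21 to 0.67, adjusted p = 0.333), so the interval runs from 0.862-fold to 1.59-fold. Without cKO array 2 it was 0.43 with an adjusted p of 0.0234, so this array decides the call.

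The second Irf8 probe moved the other way. It read 10.12, 10.03 and 10.32 in the control and 9.70, 9.28 and 9.70 in the cKO, with no overlap. The difference was -0.60 ± 0.15, that is 1.51-fold lower, with an adjusted p of 0.0144, and it passed in all 6 fits that leave out 1 array. The log ratio of the RefSeq probe to the second probe was therefore higher in the cKO by 0.83, and it was higher on every cKO array than on any control array. An exact permutation test over the arrays gave p = 0.1, the smallest that 3 against 3 can give, for this pair and for each of the 5 pairs of probes compared in this way (adjusted p = 0.1).

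Among 8 other IRF genes tested 1 was higher and 4 were lower, with a median of -0.27. Irf4, which acts in plasma cells, macrophages and osteoclasts, rose from 7.22, 7.19 and 7.14 to 10.86, 10.01 and 11.10, 11.1-fold (adjusted p = 0.000176). Irf5 fell from 13.00, 12.94 and 13.10 to 12.46, 12.14 and 12.19, and Irf2 from 10.77, 10.71 and 10.86 to 10.16, 10.18 and 10.36, 1.68-fold and 1.46-fold lower. Irf4 was the sole IRF gene of the list whose brightest probe passed in the upward direction. Another probe of Irf3 also passed (difference 0.38), while its brightest probe had no call. The cKO array 2, the lowest for the RefSeq probe of Irf8, was also the lowest cKO array for Irf4 and Spib.

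Markers of B cells and plasma cells, which also express Irf8, Irf4 and Spib, moved with these results. Of 9 such markers 7 were higher and 1 was lower, and their summed intensity was 10234, 10962 and 11725 on the control arrays and 57405, 36561 and 76190 on the cKO arrays. The lowest of the cKO sums was again that of array 2, but this was not particular to B cells. Array 2 also had the lowest cKO sum for the neutrophil, mast cell, erythroid and T and NK cell markers described below. It did not for the osteoclast, monocyte, dendritic cell and stromal markers. The part of B cells and plasma cells in the differences of Irf4, Spib and Irf8 was not tested.

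The C/EBP genes moved apart from each other. Cebpe fell, Cebpa fell less, and Cebpb rose. Cebpe, the factor of late neutrophil maturation, read 12.00, 12.19 and 12.19 in the control and 11.21, 11.01 and 11.22 in the cKO. The groups were well separated, with 0.78 between the lowest control array and the highest cKO array. The difference was -0.98 ± 0.10, 1.98-fold lower, the largest of the 11 probes (adjusted p = 0.00048). The call held in all 18 alternatives, with differences from -1.23 to -0.91, so that under some of them, such as 75th percentile scaling (-1.05), it passed 2-fold.

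Cebpa, the factor that opens the granulocyte and monocyte programme, read 11.12, 11.12 and 11.25 in the control and 10.85, 10.64 and 10.38 in the cKO. All cKO arrays were below all controls. The difference was -0.54 ± 0.13, 1.46-fold lower (95% confidence interval of the cKO to control ratio 0.551 to 0.854, adjusted p = 0.014). With the row of the slide in the model the adjusted p was 0.0591.

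Cebpb, the C/EBP factor of macrophages, was higher in the cKO. Its probe read 15.06, 14.80 and 14.76 in the control and 15.42, 15.54 and 15.31 in the cKO, with no overlap. The difference was 0.55 ± 0.11, 1.46-fold (95% confidence interval 1.21 to 1.77), with an adjusted p of 0.00798. Without normalization between arrays it was 0.26 and the call was lost (adjusted p = 0.183). Set against each other on the same array, the log ratio of Cebpb to Cebpe was higher in the cKO by 1.53, that of Cebpb to Cebpa by 1.09 and that of Cebpa to Cebpe by 0.44. For all 3 ratios every cKO array was above every control array (exact permutation p = 0.1 each, the smallest possible).

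Most other C/EBP genes and regulators of C/EBP proteins rose with Cebpb. By the brightest probe, 4 of 5 tested were higher (3 without normalization between arrays), with a median of 1.08. By these probes 0 were lower, 0 also at an unadjusted p under 0.05 in limma and 0 by the methods' t-test. Trib1 had no call by its brightest probe, but its 2 other tested probes both passed, with differences of -0.40 and 1.00. Cebpd, an inducible C/EBP gene, read 13.91, 13.43 and 13.52 in the control and 14.72, 14.73 and 14.65 in the cKO, 2.12-fold higher. Ddit3, which encodes CHOP, a stress-induced C/EBP protein that blocks the others by dimerizing with them, rose 3.36-fold. Trib2, a pseudokinase that sends C/EBPα protein to degradation, rose from 4.71, 4.71 and 4.67 to 8.57, 7.94 and 8.84, 13.5-fold (difference 3.75, and 2.20 with normexp background correction).

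**Figure D2:**
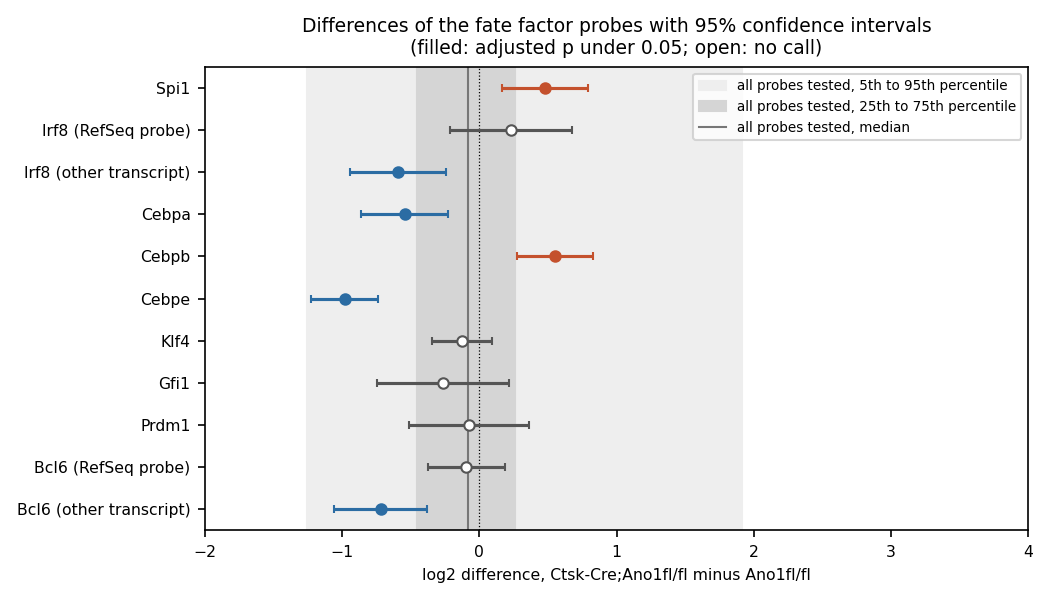
Difference in log2 intensity, Ctsk-Cre;Ano1fl/fl minus Ano1fl/fl (x axis), of each tested probe with its 95% confidence interval from limma, filled where the adjusted p was under 0.05. Grey bands run from the 25th to the 75th and from the 5th to the 95th percentile of all 31848 probes tested. Cebpe at -0.98 is the lowest point and Cebpb at 0.55 the highest, and all 11 points lie within the wider band.

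Granule genes are regulated by C/EBP factors and GFI1 as neutrophils mature. All 5 primary granule genes, made by promyelocytes, were lower, with a median of -3.41. Mpo, myeloperoxidase, read 16.04, 16.01 and 16.05 in the control and 12.90, 11.98 and 13.01 in the cKO, 10.6-fold lower (adjusted p = 0.000177). Prtn3, proteinase 3, was 11.0-fold lower, and Prss57, another granule serine protease, was lower too, reading 7.63, 7.77 and 7.83 in the control and 4.58, 3.46 and 4.25 in the cKO, where it was well above background on 2 of 3 arrays, so that the size of its fall is not known (adjusted p = 0.000156). Every control array was above every cKO array for each of these genes.

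Secondary granule genes, which C/EBPε is known to activate at the myelocyte stage, gave other counts, though the difference between the 2 lists was not tested. Of 8 tested 5 were higher and 1 was lower, with a median of 0.47. Ltf, lactoferrin, the best known of them, read 13.31, 13.29 and 13.44 in the control and 13.81, 13.55 and 13.66 in the cKO, a difference of 0.33 ± 0.10 (adjusted p = 0.0288) that lost its call in 8 of 17 alternatives. Ngp, neutrophilic granule protein, was lower by 0.30 (difference -0.30 ± 0.09, adjusted p = 0.0347, lost in 7 of 17). Lcn2, lipocalin 2, rose 3.35-fold, and Mmp9 rose 20.5-fold. Both of the latter are also made by other cells, Mmp9 by osteoclasts, whose list holds it too.

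Neutrophil and promyelocyte markers moved with these results: 9 of 12 were lower and 1 was higher, and their summed intensity was 355832 to 374096 in the control and 214678 to 268974 in the cKO. Among the lower ones were markers of mature neutrophils, named here after their values were seen: Retnlg, a resistin-like protein (difference -3.68), Cxcr2, a chemokine receptor (-2.17), and Ly6g, a surface antigen (-2.07). Other markers of the later stages were mixed. S100a8 (-0.60) and Ngp (-0.30) were lower by less, S100a9 (0.20) and Camp (-0.12) had no call and Ltf was higher. The part of neutrophils and promyelocytes in the fall of Cebpe and Cebpa was not tested. The monocyte and macrophage markers, 1 higher and 4 lower of 9, summed to 641970 to 664069 in the control and 588013 to 629084 in the cKO, with no overlap. The sum hides larger falls of single genes. Cx3cr1 (-4.62), Ccr2 (-3.36), Ly6c2 (-1.42) and Mrc1 (-1.36) were lower and Adgre1 (0.80) was higher. Csf1r, Cd14, Cd68 and Lyz2 had no call.

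Klf4, which favours monocytes, read 12.26, 12.36 and 12.15 in the control and 12.21, 12.13 and 12.04 in the cKO. The groups overlapped. The difference was -0.13 ± 0.09 (95% confidence interval -0.35 to 0.09, adjusted p = 0.272), which leaves a ratio of cKO to control between 0.785 and 1.06.

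The other KLF genes were more often higher than lower: 6 of 11 tested against 2 (Klf12 stayed at background), with a median of 0.38, although the count of higher genes was 2 without normalization between arrays. Klf15, a glucocorticoid-induced gene, stayed at background on all 3 control arrays and read 6.88, 6.78 and 6.34 in the cKO, at least 6.5-fold higher against the lowest level the arrays could tell from background (adjusted p = 8.28e-06, from a fit in which the control values are at background). Klf9, also glucocorticoid-induced, rose from 8.81, 8.81 and 8.68 to 10.34, 10.56 and 10.14, 2.98-fold. Klf10 fell by 0.59 on the log2 scale. Klf2, a quiescence factor of myeloid cells, was lower by 0.26 (difference -0.26 ± 0.07, adjusted p = 0.0235), a call lost in 7 of 17 alternatives.

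Gfi1, the repressor that keeps granulocyte precursors from the monocyte fate, had 1 probe that could be read. That probe read 10.68, 10.71 and 10.77 in the control and 10.51, 10.02 and 10.84 in the cKO. The controls lay close together, with an SD of 0.05, and the cKO arrays were spread around them with an SD of 0.41. The difference was -0.26 ± 0.20 (95% confidence interval -0.75 to 0.22, adjusted p = 0.304). The second Gfi1 probe, at the start of the coding sequence, stayed at background on all 6 arrays and was not tested.

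Other early myeloid and granulocyte factors split 4 higher to 3 lower of 10 tested, with a median of -0.04. Egr1 and Egr2, zinc finger factors that GFI1 is known to oppose in the choice of monocyte over granulocyte, were both higher. Egr1 rose from 7.39, 7.87 and 8.22 to 10.94, 10.68 and 11.27, 8.8-fold, and Egr2 from 11.09, 11.56 and 11.68 to 13.06, 12.82 and 12.85, 2.76-fold. Myb, a factor of proliferating progenitors, fell from 11.13, 11.18 and 11.28 to 10.18, 9.54 and 10.49, 2.18-fold lower, and Gata2, of progenitors and mast cells, from 8.71, 8.70 and 8.70 to 8.02, 7.40 and 7.52, 2.08-fold lower. All 4 mast cell and basophil markers tested were lower as well. Their summed intensity was 2754 to 3813 in the control and 287 to 1427 in the cKO, and its part in the Gata2 difference was not tested.

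Prdm1, whose product Blimp-1 represses the repressors of osteoclast formation, read 9.84, 10.11 and 10.47 in the control and 9.88, 10.26 and 10.07 in the cKO. All 3 cKO arrays lay inside the range of the controls. The difference was -0.07 ± 0.18 (95% confidence interval -0.51 to 0.36, adjusted p = 0.75), so that ratios from 0.701 to 1.29 remain within the interval. Its control SD of 0.32 was the widest among the control groups of the 11 probes.

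Bcl6, the repressor that Blimp-1 is known to silence in osteoclast precursors, gave 2 readings that differed, as Irf8 did. The RefSeq probe read 13.43, 13.04 and 13.17 in the control and 13.08, 13.08 and 13.18 in the cKO, with overlap (difference -0.10 ± 0.12, 95% confidence interval -0.38 to 0.18, adjusted p = 0.51). The second probe read 8.95, 8.56 and 8.53 in the control and 7.81, 8.08 and 8.0 in the cKO, with none. Its difference was -0.72 ± 0.14, 1.65-fold lower, with an adjusted p of 0.00626, and it passed in all 6 fits that leave out 1 array, but not with the row of the slide in the model (adjusted p = 0.0792). The log ratio of the 2 probes was higher in the cKO by 0.62.

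Other repressors of osteoclast formation did not move as one: 5 of 10 tested were higher and 3 were lower, with a median of 0.39. Ikzf4, the Ikaros family factor Eos, fell from 6.20, 6.12 and 6.26 to 5.59, 4.74 and 5.46. In the other direction Id3, an inhibitor of helix-loop-helix factors, rose from 8.43, 8.49 and 8.11 to 10.91, 10.63 and 10.59, 5.18-fold, and Nr4a1, an orphan nuclear receptor that limits NFATc1, rose from 9.22, 9.16 and 9.40 to 12.73, 12.32 and 12.88, 10.4-fold. Of the known targets of Blimp-1 among the 9 genes, Irf8 and Bcl6, the second probes were lower, and the RefSeq probes had no call.

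Co-repressor partners, through which BCL6, GFI1 and Blimp-1 act, were mostly without a call, 8 of 12. Bcor, a partner of BCL6, rose from 9.99, 10.11 and 10.08 to 11.22, 11.06 and 11.44, 2.27-fold (adjusted p = 0.000392). Ehmt2, the methyltransferase G9a, fell by 0.43 and Sin3a by 0.37 on the log2 scale, and Hdac3 was the third of the 3 lower genes.

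**Figure D3:**
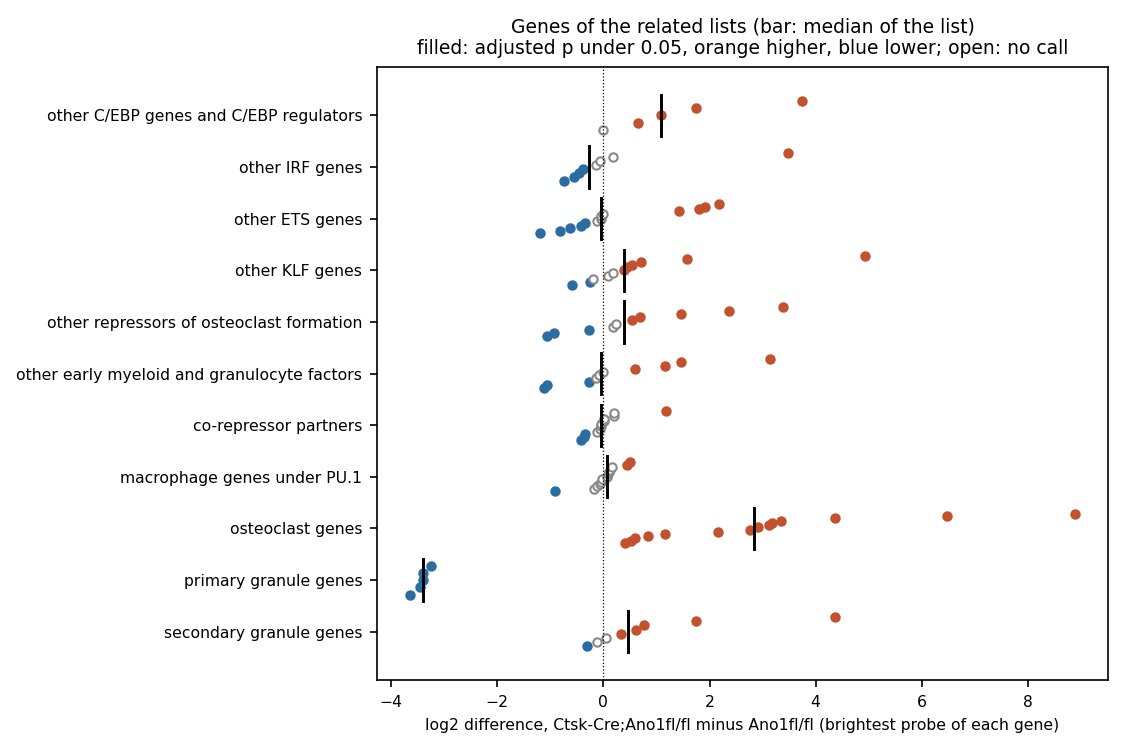
Difference in log2 intensity, Ctsk-Cre;Ano1fl/fl minus Ano1fl/fl (x axis), of each tested gene in the 11 related lists, read by its brightest probe, with the median of a list as a black bar. Osteoclast genes lie to the right of 0 and primary granule genes to the left, while the PU.1 macrophage genes and co-repressors cluster at 0. The Klf15 point rests on control values at background, so its place is not a measured difference.

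All 14 osteoclast genes tested, each read by its brightest probe, were higher on the arrays labelled cKO and 10 of them by over 2-fold, with a median of 2.85, and 11 of the 14 were called without normalization between arrays. Ctsk, cathepsin K, the collagenase of the resorbing osteoclast, read 14.09, 13.79 and 13.78 in the control and 16.98, 17.18 and 17.03 in the cKO, 9.01-fold higher. Calcr, the calcitonin receptor, rose from 3.85, 4.36 and 4.14 to 12.71, 13.33 and 12.98, and was well above background on 2 of 3 control arrays. Oscar, a co-stimulatory receptor of osteoclasts, rose 89.4-fold. Nfatc1, the master factor that BCL6 and IRF8 restrain, rose from 11.70, 11.76 and 11.69 to 12.10, 12.36 and 12.25, 1.44-fold by its brightest probe (adjusted p = 0.00395), while its other tested probe was lower by 0.53 (difference -0.53) and also passed.

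**Figure D4:**
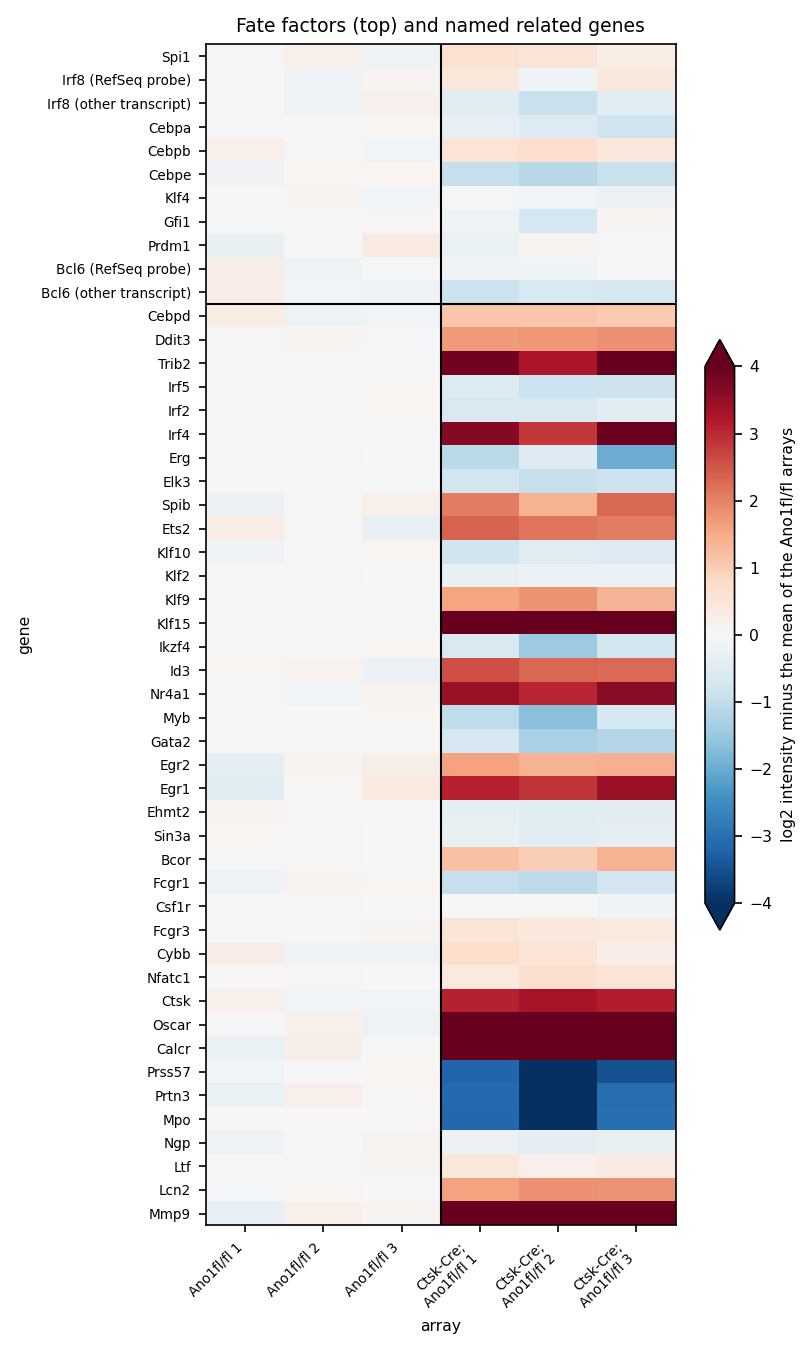
Log2 intensity minus the mean of the 3 Ano1fl/fl arrays (colour, capped at 4 either way) for the 11 tested fate factor probes above the line and the named related genes below it, on each of the 6 arrays (columns). The fate factors are pale, within 1.12 units of the control mean, beside Ctsk, Oscar, Calcr and Mmp9 in dark red and Mpo, Prtn3 and Prss57 in dark blue.

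The labels call the samples osteoclasts and, as cell type, bone marrow cells, and the markers of both were present. All 8 osteoclast markers were higher in the cKO, summing to 140167 to 151676 in the control and 420154 to 469972 in the cKO. Of 10 stromal cell markers 9 were higher, summing to 1664 to 1922 and 28781 to 47285. Erythroid and megakaryocyte markers fell in 3 of 3 tested, with summed intensities of 116840 to 128982 and 50518 to 59692, and Hbb-b1 and Alas2 were at background on all arrays. Of 5 dendritic cell markers tested 2 were higher and 1 was lower, with Xcr1 at background, and of 7 T and NK cell markers 2 were higher and 1 was lower. Klf4, Cebpb and Cebpd are also expressed in stromal cells, and the part of those cells in their differences was not tested.

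**Figure D5:**
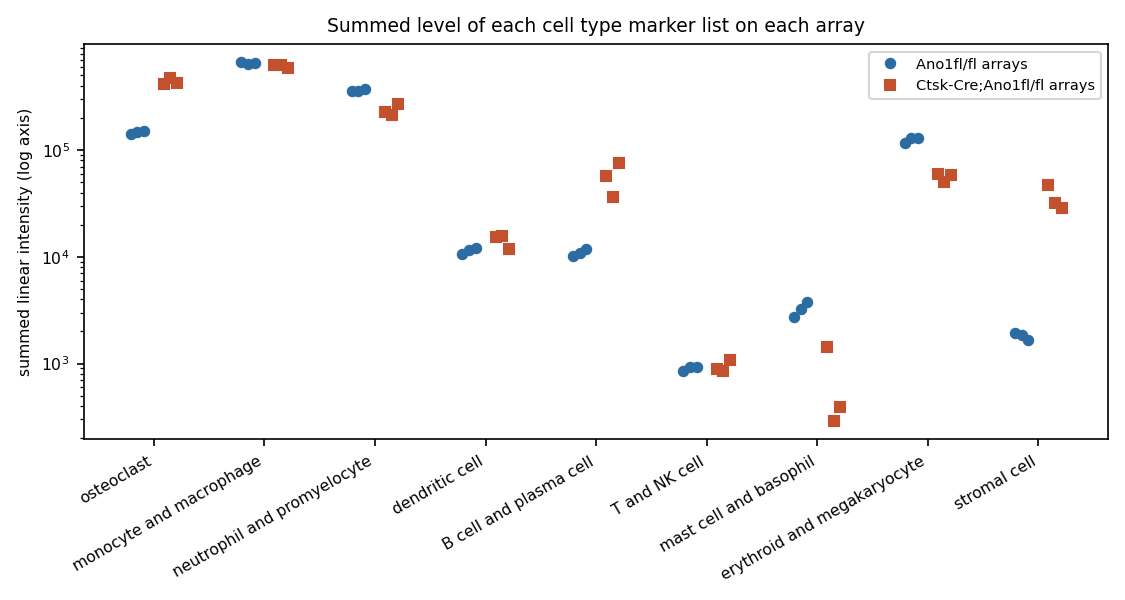
Summed linear intensity (y axis, log scale) of the brightest probes of each marker list on the 3 Ano1fl/fl (blue circles) and 3 Ctsk-Cre;Ano1fl/fl (orange squares) arrays. The groups are apart for the osteoclast, B cell and plasma cell and stromal lists, higher in the cKO, and for the monocyte, neutrophil, mast cell and erythroid lists, lower in the cKO; heights of different lists are not comparable.

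RefSeq promoters (GRCm38.p6) were available for 7 of the 9 genes, all but Spi1 and Cebpe, with 10 start sites in all. The 250 bases before each start were searched on both strands for the letters of 7 motifs: GAGGAA (PU.1), TTGCNNAA (C/EBP), GAAANNGAA (IRF), GTGAAAG (Blimp-1), TTCNNNGAA (BCL6, a form shared with STAT factors), AAATCA (GFI1) and CCACACCC (KLF). Of the same window in all 32851 promoters 23.3% held the PU.1 letters, 9.56% the C/EBP letters, 7.13% the IRF letters, 3.57% those of Blimp-1, 7.02% those of BCL6, 12.4% those of GFI1 and 3.20% those of KLF factors. The promoters of the first starts of Irf8 and Bcl6 are printed because these 2 genes are the repressors under Blimp-1 and each holds the BCL6 letters. Matches are in capitals. The first is chr8:120736108-120736357 on the plus strand and the second chr16:23988853-23989102 on the minus strand.
Irf8: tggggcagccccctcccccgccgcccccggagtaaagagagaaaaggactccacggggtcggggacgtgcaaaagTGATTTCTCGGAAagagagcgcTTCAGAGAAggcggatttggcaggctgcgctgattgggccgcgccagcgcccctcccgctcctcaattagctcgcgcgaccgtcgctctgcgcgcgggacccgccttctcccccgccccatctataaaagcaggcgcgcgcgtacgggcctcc
Bcl6: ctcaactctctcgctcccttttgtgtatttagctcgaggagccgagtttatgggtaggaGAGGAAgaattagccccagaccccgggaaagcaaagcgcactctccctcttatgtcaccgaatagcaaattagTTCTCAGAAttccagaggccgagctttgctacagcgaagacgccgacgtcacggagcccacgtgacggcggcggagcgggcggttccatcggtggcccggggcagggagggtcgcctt

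In Irf8 the BCL6 letters occur as TTCTCGGAA from 171 to 163 bases and as TTCAGAGAA from 153 to 145 bases before the start, and the first overlaps the reverse GFI1 letters TGATTT. In Bcl6 they occur as TTCTCAGAA from 118 to 110 bases before the first start, with PU.1 letters from 191 to 186, and 3 more times before the second start. The second Irf8 start held the reverse GFI1 letters, Prdm1 the PU.1 letters and the first Gfi1 start the C/EBP letters, once each, and the Cebpa, Cebpb and Klf4 windows held none of the 7. The matches are descriptions of these letters, and no binding was measured.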

How the data were processed

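RNA of 6 osteoclast cultures, 3 Ano1fl/fl and 3 Ctsk-Cre;Ano1fl/fl, was hybridised by the authors to 1-colour Agilent mouse arrays of 1 slide in 1 scan. The deposited files hold linear spot intensities from Feature Extraction 10.7.1.1 (processing notes of the submitters), with background and trends within an array removed in the processed signal and no normalization between arrays. The value table deposited with them holds the spot median intensity, with a largest difference of 0. The log2 of the processed signal was quantile normalized, as the methods name, and replicate spots of 1 probe were averaged. Control spots were left out, as were 14 probes missing on some array. Differences were tested per probe with limma 3.58.1 in R 4.3.3 (lmFit, eBayes), tested on simulated data, with Python 3.11.15, pandas 2.3.3 and matplotlib 3.10.9. A gene of a list was read by its brightest probe (mean of the 6 arrays), and a probe counted as well above background if that held for a share of 0.5 or more of its spots.

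The 9 genes and the lists were chosen with earlier results of these data known. From each list the text names up to 2 rises and 2 falls, the largest that passed without overlap and with the brighter group well above background on 3 arrays, and always Irf4, Cebpd, Csf1r, Nfatc1, Ctsk, Mpo and Ltf. A gene that the rule also names is not reported here. The bound for Klf15 sets, on each control array, the higher of its own value and the lowest signal well above background against the mean of the cKO arrays. Alternatives were other scalings (75th percentile, none), normexp background correction (offset 50), the values of that table, other filters, a single probe or the mean of probes per gene, limma with trend and robust settings, the methods' t-test, a replicate block, each array left out, and, chosen after seeing the data, the row of the slide as a block. Sequences are those of the array files and of RefSeq on GRCm38.p6. Precision is limited by the 6 arrays.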

Additional observations from a re-analysis of the deposited data

How the results depend on the processing

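The count of higher probes among the 9 genes was 2, and it was 0 without normalization between arrays, 1 without a filter on dim probes, 1 by the methods' t-test and 1 to 2 with an array left out. The count of lower probes was 4, and it was 2 with 1 probe a gene, which drops the second Irf8 and Bcl6 probes, and 2 with the row of the slide in the model, where control arrays 1 and 2 form one row. Over all probes 6943 were higher and 9747 lower. Higher probes numbered 3680 without normalization and 4319 with the mean of the probes of a gene, and lower ones 5987 with 1 probe a gene, 6052 with their mean and 5737 with the slide row. With a replicate block they were 5988 and 8162, with 2 and 4 for the 9 genes; same-numbered arrays correlated at -0.02, -0.08 and -0.09, so the numbers do not pair the samples. The RefSeq probe of Irf8 turned to -0.059 without normalization and to -0.18 with the mean of probes; with an array left out, that of Bcl6 ranged from -0.19 to 0.013 and Prdm1 from -0.23 to 0.090. Without normalization the median of all probes lay at -0.32 instead of -0.09, Spi1 at 0.24 (adjusted p = 0.328) and Cebpb at 0.26 (adjusted p = 0.183); relative to those medians both stood at 0.56 and 0.58, beside 0.56 and 0.64 in the quantile values. The cause of the other changes was not tested. With the mean of its probes Bcl6 was lower by 0.41 (difference -0.41, adjusted p = 0.0325). Without normalization 11 osteoclast genes, 3 C/EBP genes, 2 KLF genes, 3 other repressors, 3 early myeloid factors, 3 secondary granule genes and 0 PU.1 macrophage genes were higher, in place of 14, 4, 6, 5, 4, 5 and 2. Normexp correction, whose offset by construction shrinks differences of dim probes, gave 2.20 for Trib2 in place of 3.75. With the slide row 3 ETS genes, 1 KLF gene, 1 other repressor, 1 early myeloid factor and 0 co-repressors were lower, in place of 5, 2, 3, 3 and 3, and 0 PU.1 macrophage genes were higher. With an array left out, 3 ETS genes were lower without control array 1 or cKO array 1, 1 KLF gene was lower when any single array other than cKO array 2 was left out, 0 secondary granule genes were lower when any single array other than control array 1 was left out, and 1 PU.1 macrophage gene was higher without control array 2 or 3 or cKO array 1 or 2. The call was lost in 2 of 17 alternatives for Ikzf4 and Fcgr3 and in 1 for Myb, Ehmt2, Sin3a and Nfatc1. The Cebpe call held in all 18 alternatives.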
